A study of Mus musculus with 18 samples.

Results

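The genes described here encode the enzymes and cofactors that degrade cytoplasmic and nuclear mRNA. A list of 53 mouse genes covering nonsense-mediated decay (NMD), the CCR4-NOT, PAN2-PAN3 and PARN deadenylases, decapping, the XRN exonucleases and the exosome was matched by symbol to the 55414 genes counted. All 53 were found, and 52 passed the filter on low counts. *Exosc6*, a core subunit of the exosome, had 0 counts in all 18 libraries. All of its exon sequence lies inside exons of *Aars1* on the same strand, where a read cannot be assigned to a single gene, so its level was not measured.

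The libraries were made from N2A cells (labelled Neuro-2a), a mouse neuroblastoma line, 72 h after transfection with 1 of 6 siRNAs: neg_control A or B (Scramble KD), fmrp A or B (*Fmr1* KD, against the mRNA of the RNA-binding protein FMRP), or znf A or B (*Zfp598* KD, against the mRNA of an E3 ubiquitin ligase that detects collided ribosomes). Each siRNA was represented by 3 libraries of total RNA depleted of rRNA, the libraries being named here by target, siRNA letter and replicate (*Fmr1* A1). All groups share the cell line, the transfection and the time, and each group is a single siRNA in a single line, so that an effect of the target and any other effect of that siRNA cannot be told apart. The letters are the only labels that tie a KD siRNA to a Scramble siRNA.

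Degradation of an mRNA in the cytoplasm usually begins with removal of the poly(A) tail by deadenylases, after which the cap is removed by DCP2 and the body is digested from the 5′ end by XRN1, or the transcript is digested from the 3′ end by the exosome. NMD recruits these enzymes, and the endonuclease SMG6, to transcripts on which translation ends too early. The factors below differ in their targets, those of NMD acting on a subset of transcripts, and are themselves encoded by broadly expressed genes.

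Total counts ranged from 7674724 to 15414590 per library, and the lowest count of any of the 52 tested members in any library was 22. The targets fell in their own KD: *Fmr1* was at 51.0 to 68.5 CPM (counts scaled to the size of the library with edgeR's TMM factors) in Scramble KD and at 15.6 to 27.5 CPM in *Fmr1* KD, and *Zfp598* was at 103 to 128 CPM in Scramble KD and at 32.1 to 48.6 CPM in *Zfp598* KD. Libraries *Zfp598* A2 and A3 stood apart, with 15.2% and 25.8% of all counts in a single feature that took 5.00% to 11.1% in the other libraries. Fits without *Zfp598* A2 and A3 leave A1 as the only library of that siRNA. In them a lost effect and lost replication cannot be told apart, so only sizes of change are given for that siRNA. In library *Fmr1* B1 the summed level of 7 pluripotent stem cell markers was 34.4 CPM, against at most 8.57 CPM in any other library. Of the neuroblast markers reported here 11 exceeded 1 CPM in every library, whereas *Nefl* and *Nefm* stayed below 1 CPM in all of them. Since the RNA came from whole cultures, fewer cells of a kind and less RNA per cell cannot be told apart. In the comparisons by siRNA the p-values below measure the spread between replicate transfections, which may be technical. The fit gave each gene 1 spread shared by all 6 groups, whose replicates were not equally alike. Chi-square per degree of freedom between 2 replicates, over the counted features, ranged from 2.64 (Scramble B1 and B2) to 121 (*Zfp598* A1 and A3). Such p-values can be too small for a group that varies more and too large for others. In the pooled comparisons the 6 libraries of a condition come from 2 siRNAs, so the spread there also holds differences between siRNAs.

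Promoter sequences are shown for 4 members on which the comparisons below turn: *Upf1*, which rose with *Zfp598* siRNA B, *Upf3a*, which fell with both B siRNAs, *Cnot6*, which fell with *Fmr1* siRNA B, and *Dis3*, which moved in opposite directions with the *Fmr1* siRNAs when each was set against its own Scramble siRNA. Each is the RefSeq promoter on mouse build GRCm38.p6, from 250 bases before to 50 bases after the start of the gene, written 5′ to 3′ on the strand of the gene. Capitals mark the motifs searched on both strands: the ETS core (CCGGAAG), the NRF1 core (GCATGCG), the E-box (CACGTG), the GC box (GGGCGGG) and the CCAAT box (CCAAT). No motif contains another, although neighbouring matches may overlap, and the NRF1 core can match both strands at almost the same place. The windows were chr8:70353230-70353529 on the minus strand for *Upf1*, chr8:13785365-13785664 on the plus strand for *Upf3a*, chr11:49712673-49712972 on the minus strand for *Cnot6* and chr14:99099721-99100020 on the minus strand for *Dis3*.
Upf1: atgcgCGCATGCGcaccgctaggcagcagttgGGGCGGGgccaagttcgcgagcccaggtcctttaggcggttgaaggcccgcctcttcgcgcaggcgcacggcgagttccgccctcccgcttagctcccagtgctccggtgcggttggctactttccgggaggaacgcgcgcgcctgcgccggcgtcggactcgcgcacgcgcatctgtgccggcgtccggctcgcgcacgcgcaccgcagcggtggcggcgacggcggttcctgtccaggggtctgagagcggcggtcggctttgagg
Upf3a: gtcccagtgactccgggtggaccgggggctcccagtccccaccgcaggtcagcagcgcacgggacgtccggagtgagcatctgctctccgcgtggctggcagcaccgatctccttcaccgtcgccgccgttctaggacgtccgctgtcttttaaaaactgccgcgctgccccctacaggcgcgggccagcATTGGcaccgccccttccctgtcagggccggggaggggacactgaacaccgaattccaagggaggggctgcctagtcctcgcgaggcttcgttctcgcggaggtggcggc
Cnot6: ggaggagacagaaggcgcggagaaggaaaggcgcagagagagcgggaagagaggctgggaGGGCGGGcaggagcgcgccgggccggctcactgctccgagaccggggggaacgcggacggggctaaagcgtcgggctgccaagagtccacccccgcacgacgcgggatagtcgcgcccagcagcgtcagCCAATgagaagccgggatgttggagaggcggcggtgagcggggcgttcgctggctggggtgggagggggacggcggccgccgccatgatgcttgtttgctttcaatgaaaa
Dis3: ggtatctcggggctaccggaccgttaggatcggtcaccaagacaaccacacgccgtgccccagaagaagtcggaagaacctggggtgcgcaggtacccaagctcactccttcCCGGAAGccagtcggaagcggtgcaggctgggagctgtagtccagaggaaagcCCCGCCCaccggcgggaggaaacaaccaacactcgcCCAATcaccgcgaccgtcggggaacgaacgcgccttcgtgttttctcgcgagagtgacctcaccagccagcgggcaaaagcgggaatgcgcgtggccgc

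The *Upf1* window holds 2 overlapping matches to the NRF1 core, 1 on each strand, and a GC box, that of *Upf3a* a CCAAT box on the opposite strand, that of *Cnot6* a GC box and a CCAAT box, and that of *Dis3* an ETS core, a GC box and a CCAAT box. Of the 53 members 45 matched an entry of the promoter table. Among these 45, 12 (26.67%) held the ETS core, against 9.12% of all 27025 promoters of the same length. The NRF1 core was in 8 (17.78%) against 3.64%, the GC box in 24 (53.33%) against 25.75%, the CCAAT box in 18 (40.0%) against 37.92% and the E-box in 3 (6.67%) against 7.24%. These matches describe letters in a window and were not tested as sites. The 27025 promoters were not limited to genes expressed in these cells, so a higher share is not shown to be particular to decay genes.

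Every difference was tested on the counts of all 17901 genes that passed the filter with edgeR's quasi-likelihood test, with the p adjusted by Benjamini-Hochberg over all of them and called under 0.05. Across the 6 siRNA groups 39 of the 52 members differed (75%), against a background of 63.3% of all genes. The range between the lowest and the highest group mean had a median of 0.50 on the log2 CPM scale over the members and of 0.68 over all genes, and the median spread within a group (SD) was 0.14 against 0.21. *Lsm4* had the widest range of the members (1.39). The steadiest members were *Cnot3* (range 0.21), *Lsm5* (0.23), *Exosc10* (0.27), *Cnot10* (0.27) and *Edc3* (0.28).

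**Figure D1:**
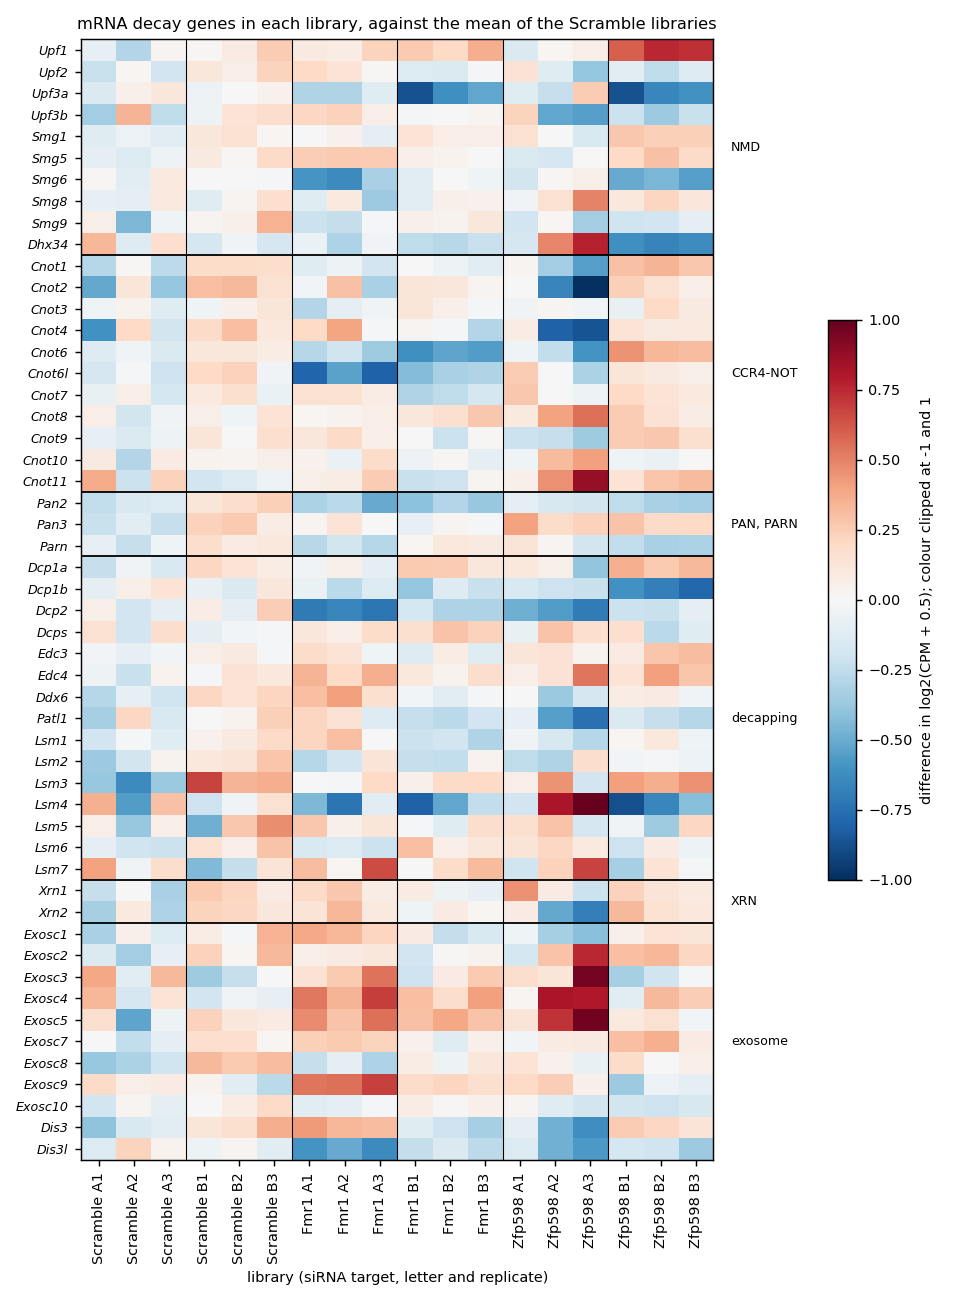
Level of each of the 52 measured decay genes (rows, grouped by role) in each of the 18 libraries (columns), as the difference in log2(CPM + 0.5) from the mean of the 6 Scramble libraries. Colour is clipped at -1 and 1, and a reader should see the low *Dcp2* values in the *Fmr1* A and *Zfp598* A libraries, the low *Upf3a* values in both B knockdowns and the high *Lsm4* and *Dhx34* values in *Zfp598* A2 and A3.

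With both siRNAs of a target pooled, 6 libraries against 6, 4 members fell with *Fmr1* KD and none rose (7.69% of the members, with 6.54% of all genes called, 2.73% higher and 3.8% lower). They were *Cnot6l*, *Dcp2*, *Dis3l* and *Pan2*. Without TMM scaling, which moved the median of all genes up by 0.08, 2 members were higher and 1, *Cnot6l*, lower (with 6.49% of all genes called). DESeq2 called 5 lower and 1 higher, without a share of all genes beside them. In edgeR 10 members had an unadjusted p under 0.05, as did 3875 of the 17901 genes. With *Zfp598* KD no member was called by edgeR (1.96% of all genes were, 0.916% higher and 1.04% lower). An unadjusted p under 0.05 was found for 14 members and for 3243 of the 17901 genes. DESeq2 called 1 member and 917 of all genes. Without *Zfp598* A2 and A3 edgeR called 5 (1 higher and 4 lower), with 6.86% of all genes called, and with the siRNA letter as a term it called 2 (with 788 of all genes). The median change over the members was 0.01 on the log2 scale with *Fmr1* KD and 0.03 with *Zfp598* KD, and over all genes 0.00 and 0.01. The 2 pooled comparisons share their Scramble libraries.

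Compared siRNA by siRNA, 3 libraries against 3, the members moved more often and not the same way. With *Fmr1* siRNA A 12 members rose and 4 fell against Scramble siRNA A (30.8%, with 23.6% of all genes called, 10% higher and 13.6% lower). With *Fmr1* siRNA B none rose and 8 fell against Scramble siRNA B (15.4%, with 22.7% of all genes, 11.3% in each direction). There 19 members had an unadjusted p under 0.05, as did 6140 of the 17901 genes. DESeq2 called 11 members, all lower, without a share of all genes beside them. The count for siRNA B was 7 without *Fmr1* B1 (with 17.7% of all genes called). These comparisons share no library. *Zfp598* siRNA A gave 6 rises and 2 falls (15.4%, with 11.9% of all genes, 6.3% higher and 5.64% lower), and *Zfp598* siRNA B 1 rise and 9 falls (19.2%, with 26.8% of all genes, 12.4% higher and 14.4% lower). In a fit of the 6 libraries of its comparison alone *Zfp598* siRNA A gave 0 calls (0.626% of all genes). The median change over the members was 0.13 with *Fmr1* siRNA A, -0.15 with *Fmr1* siRNA B, 0.07 with *Zfp598* siRNA A and -0.05 with *Zfp598* siRNA B, while that over all genes lay between -0.01 and 0.01. These counts changed with the control libraries, as did those over all genes. With all 6 Scramble libraries as the control *Fmr1* siRNA A gave 4 rises and 6 falls (with 21.4% of all genes called). The rises of *Pan3*, *Ddx6*, *Lsm1*, *Lsm3*, *Xrn1*, *Exosc1*, *Exosc5*, *Exosc7* and *Dis3* no longer passed (adjusted p from 0.0549 to 0.96). *Fmr1* siRNA B then kept 4 of its 8 falls, those of *Upf3a*, *Cnot6*, *Cnot6l* and *Pan2* (with 12.3% of all genes called). *Zfp598* siRNA B gave 4 rises and 6 falls (with 22.1% of all genes). In that fit the difference between the Scramble siRNAs adds to the spread within groups. Without TMM scaling *Fmr1* siRNA B gave 4 rises and 5 falls (with 23.7% of all genes) and *Zfp598* siRNA B 3 and 6 (26.5%). That scaling moved the median of all genes up by 0.08 and 0.05 in that order. In these 4 comparisons no called member changed by more than 2-fold, where 3.61%, 4.07%, 1.42% and 5.1% of all genes did in the same order. In all, 29 members were called with at least 1 of the 4 siRNAs and 23 with none, a split that was not counted over all genes.

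Scramble siRNAs, which have no intended target, also differed from each other. Between Scramble siRNA B and Scramble siRNA A 10 members were higher with B and none lower (19.2%, with 22.7% of all genes called, 10.4% higher and 12.2% lower). An unadjusted p under 0.05 was found for 26 members, and DESeq2 called 13, all higher, both without a share of all genes beside them. The largest was *Lsm3*, a subunit of the Lsm1-7 ring that binds shortened tails, with 22.1, 17.4 and 17.7 CPM in Scramble B1 to B3 and 10.4, 8.59 and 10.5 CPM in A1 to A3 (log2 difference 0.96 ± 0.14 SE, adjusted p = 6.56e-05). The exosome subunit *Exosc8* followed with 32.3, 30.9 and 32.0 CPM against 19.6, 20.5 and 22.3 CPM (0.61 ± 0.10, adjusted p = 0.000113), and then *Dis3* (0.44 ± 0.12, adjusted p = 0.00958). The groups did not overlap for any of these 3 genes. All 20 proliferation genes on a marker list were higher with Scramble siRNA B as well, and their summed level was 2247 to 2567 CPM against 1148 to 1293 CPM. Of 11 measured neuroblast markers 7 were lower and none higher, with a summed level of 1170 to 1320 CPM against 1962 to 2098 CPM. These markers moved in the KD comparisons as well: 8 were lower with *Fmr1* siRNA A, 7 higher with *Fmr1* siRNA B, 1 higher and 4 lower with *Zfp598* siRNA A, and 6 higher and 1 lower with *Zfp598* siRNA B. Of the proliferation genes 6 were higher and 7 lower, 1 and 6, 11 and none, and 1 and 8 in the same order. The part of either list in the members' changes was not tested.

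Among the NMD factors, *Upf1* (chromosome 8, 70784146 to 70806096 on GRCm39, minus strand, ENSMUSG00000058301) encodes the helicase at the centre of NMD, and it was the only member that rose with *Zfp598* siRNA B. Its level was 182, 204 and 200 CPM in *Zfp598* B1 to B3 against 121, 127 and 144 CPM in Scramble B1 to B3 (log2 change 0.58 ± 0.09, adjusted p = 0.000113). The other 15 libraries ranged up to 155 CPM, below each of these 3. With *Zfp598* siRNA A the level was 109 to 126 CPM against 98.2 to 123 CPM (0.09 ± 0.09, adjusted p = 0.576), and the effects of the 2 *Zfp598* siRNAs differed by 0.48 ± 0.13 (adjusted p = 0.0126).

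*Upf3a* (chromosome 8, 13835584 to 13849194, plus strand, ENSMUSG00000038398), which like its paralog *Upf3b* links UPF2 to the exon junction complex, was lower with both B siRNAs. It stood at 20.1, 24.2 and 25.9 CPM in *Fmr1* B1 to B3 and at 20.2, 23.5 and 24.4 CPM in *Zfp598* B1 to B3, against 35.8, 37.3 and 38.5 CPM in Scramble B1 to B3. Both groups lay below all 12 other libraries, which spanned 30.1 to 44.6 CPM. The changes were -0.67 ± 0.12 (adjusted p = 0.000495) and -0.71 ± 0.12 (adjusted p = 0.000246), and these comparisons share the Scramble B libraries. *Fmr1* siRNA A gave -0.26 ± 0.12 (adjusted p = 0.143) and *Zfp598* siRNA A -0.04 ± 0.12 (adjusted p = 0.862). The effects of siRNA A and B differed for *Zfp598* (-0.67 ± 0.18, adjusted p = 0.00939), whereas for *Fmr1* the difference of -0.41 ± 0.17 did not pass (adjusted p = 0.0998).

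*Smg6*, the NMD endonuclease, split the siRNAs in another way. It was at 51.0, 49.3 and 61.2 CPM with *Fmr1* siRNA A against 77.6, 71.5 and 82.3 CPM with Scramble siRNA A (-0.52 ± 0.09, adjusted p = 0.000255), and at 53.9, 55.8 and 52.4 CPM with *Zfp598* siRNA B against 77.0, 77.2 and 75.6 CPM with Scramble siRNA B (-0.50 ± 0.09, adjusted p = 0.000346). With *Fmr1* siRNA B (71.5 to 77.1 CPM) and *Zfp598* siRNA A (67.4 to 80.2 CPM) it overlapped the Scramble libraries. The siRNAs of each target differed in their effect, by 0.48 ± 0.13 for *Fmr1* (adjusted p = 0.00992) and by -0.46 ± 0.13 for *Zfp598* (adjusted p = 0.0141), B minus A. The latter difference was -0.29 without *Zfp598* A2 and A3, which leaves A1 alone. Of the exon sequence of *Smg6*, 16.45% lies opposite *Srr*, *Hic1* and a further transcript. *Smg5*, an adaptor of phosphorylated UPF1, rose with *Fmr1* siRNA A (0.35 ± 0.07, adjusted p = 0.00111). *Dhx34*, a helicase that promotes remodelling of UPF1 complexes, fell with *Zfp598* siRNA B, from 19.0, 20.9 and 18.9 CPM to 13.8, 13.2 and 13.7 CPM (-0.53 ± 0.17, adjusted p = 0.0265). Leaving out any 1 of these 6 libraries ended that call.

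Of the 10 NMD members, 4 fell and 1 rose with *Zfp598* siRNA B (*Upf3a*, *Dhx34*, *Smg6* and *Upf2*, a partner of UPF1, against *Upf1*), 1 fell with *Fmr1* siRNA B, 1 rose and 1 fell with *Fmr1* siRNA A, and none was called with *Zfp598* siRNA A. In the last comparison none had an unadjusted p under 0.05, against 4748 of the 17901 genes. The shares of the NMD members called, 50%, 10%, 20% and 0%, stood against 26.8%, 22.7%, 23.6% and 11.9% of all genes. The fall of *Upf2* lost its call without TMM scaling (-0.25, adjusted p = 0.126). A list of 12 RNAs known to be degraded by NMD was read beside these factors. Of the 12, 1 was higher and 6 lower with *Fmr1* siRNA B, 1 higher and 4 lower with *Zfp598* siRNA B, none higher and 2 lower with *Fmr1* siRNA A, and 1 higher and 1 lower with *Zfp598* siRNA A. Their median log2 changes were -0.36, -0.21, -0.22 and 0.09 in that order, and 58.3%, 41.7%, 16.7% and 16.7% of them were called. Between the Scramble siRNAs 3 were higher and 1 lower with B, and both B comparisons rest on those libraries.

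In the CCR4-NOT complex the paralogous CCR4-type nucleases *Cnot6* and *Cnot6l* carried the largest changes. *Cnot6* (chromosome 11, 49561883 to 49604504, minus strand, ENSMUSG00000020362) had the smallest p of the members in the test over all 6 groups (adjusted p = 2.18e-06). Its level was 202, 214 and 210 CPM with *Fmr1* siRNA B against 334, 333 and 325 CPM with Scramble siRNA B (-0.67 ± 0.10, adjusted p = 5.16e-05). With *Fmr1* siRNA A it was 253, 268 and 241 CPM against 283, 301 and 279 CPM, which did not pass (-0.18 ± 0.10, adjusted p = 0.211), and the 2 *Fmr1* effects differed by -0.49 ± 0.14 (adjusted p = 0.0148). With *Zfp598* siRNA B it was highest, at 422, 388 and 381 CPM, above every other library (0.26 ± 0.10, adjusted p = 0.052).

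*Cnot6l* fell with both *Fmr1* siRNAs. Its level was 116, 138 and 115 CPM against 178, 199 and 174 CPM for siRNA A (-0.58 ± 0.11, adjusted p = 0.000847), and 148, 161 and 163 CPM against 230, 236 and 196 CPM for siRNA B (-0.49 ± 0.11, adjusted p = 0.00366). All 6 *Fmr1* KD libraries lay below all 6 Scramble libraries, and the pooled change was -0.53 ± 0.11 (adjusted p = 0.00804). With *Zfp598* KD it ranged from 161 to 240 CPM (pooled change 0.04 ± 0.11, adjusted p = 0.905). Among the other subunits *Cnot7*, a CAF1-type nuclease, fell with *Fmr1* siRNA B (-0.31 ± 0.09, adjusted p = 0.0157), a call that was lost without *Fmr1* B1 (-0.27, adjusted p = 0.0708). Its paralog *Cnot8* was at 75.8, 94.0 and 104 CPM in *Zfp598* A1 to A3 against 74.3, 62.5 and 69.2 CPM in Scramble A1 to A3 (0.41 ± 0.10, adjusted p = 0.0128). The change was 0.13 without *Zfp598* A2 and A3, which leaves A1 alone. Of the exon sequence of *Cnot7*, 31.8% lies opposite *Vps37a* and *Zdhhc2*, so that without a stated strand setting its count is uncertain.

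The scaffold *Cnot1* was not called with any KD siRNA against its Scramble siRNA, although it was higher with Scramble siRNA B than with A (0.35 ± 0.11, adjusted p = 0.0232). *Cnot3*, a subunit of the NOT module, was the steadiest member, with group means between 11.3 and 13.1 CPM per kb of transcript. *Cnot2*, its partner in that module, was low where the most counted feature was high: it stood at 122 CPM in *Zfp598* A1, 76.4 in A2 and 54.3 in A3, and at 84.8 and 92.6 CPM in Scramble A1 and A3 against 131 in A2. Between the *Zfp598* siRNAs it was called higher for B (0.66 ± 0.20, adjusted p = 0.0156), and without *Zfp598* A2 and A3 the difference was 0.17, with A1 alone left.

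**Figure D2:**
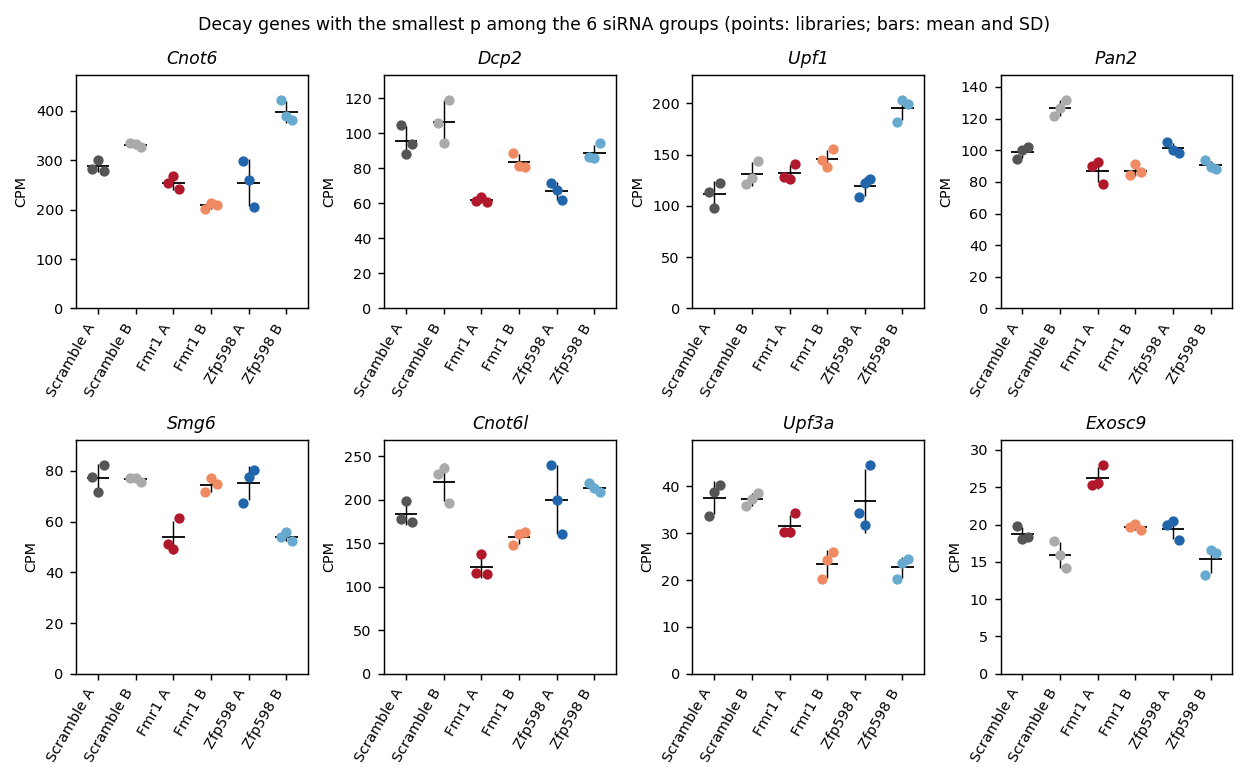
Level in CPM (vertical axis, from 0) of the 8 decay genes with the smallest p among the 6 siRNA groups, by siRNA group (horizontal axis). Points are libraries and bars are the mean and SD of 3 libraries, and the 3 *Zfp598* B points for *Upf1* (182 to 204 CPM) and the 3 *Fmr1* A points for *Dcp2* (60.6 to 63.8 CPM) stand clear of their Scramble groups.

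The 3 genes of the other deadenylases were *Pan2*, *Pan3* and *Parn*. *Pan2*, the nuclease of the PAN2-PAN3 complex that starts tail shortening, fell with both B siRNAs, to 84.3, 91.1 and 86.1 CPM with *Fmr1* siRNA B (-0.54 ± 0.08, adjusted p = 2.92e-05) and to 93.9, 89.3 and 87.9 CPM with *Zfp598* siRNA B (-0.49 ± 0.08, adjusted p = 7.63e-05), from 122, 127 and 132 CPM with Scramble siRNA B. The Scramble B libraries are shared by both comparisons and were the 3 highest of all 18 for this gene. They exceeded Scramble A1 to A3 (94.5 to 102 CPM) by 0.36 ± 0.08 (adjusted p = 0.00177). Pooled, *Pan2* fell with *Fmr1* KD (-0.37 ± 0.09, adjusted p = 0.0172).

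*Pan3*, the adaptor of that complex, rose by 0.24 ± 0.08 with *Fmr1* siRNA A (adjusted p = 0.0289). Its rise for *Zfp598* siRNA A was 0.47 ± 0.08 (adjusted p = 0.000706), and these comparisons share the Scramble A libraries. *Parn*, a poly(A)-specific ribonuclease of the nucleus and cytoplasm, fell with *Zfp598* siRNA B, from 77.0, 71.9 and 73.1 CPM to 57.4, 54.3 and 54.4 CPM (-0.42 ± 0.08, adjusted p = 0.000933). For all 3 of these genes the effects of *Zfp598* siRNAs A and B differed, each with a lower value for B (-0.52 ± 0.11 for *Pan2*, -0.43 ± 0.11 for *Pan3* and -0.54 ± 0.12 for *Parn*). Without TMM scaling that of *Pan3* was -0.32 (adjusted p = 0.0601). All 3 were also higher with Scramble siRNA B than with A.

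*Dcp2*, the enzyme that removes the cap, was the only member called lower with each of the 4 KD siRNAs. Of all genes tested 42 were lower with all 4 (0.235%) and 20 higher (0.112%). With *Fmr1* siRNA A it fell from 105, 88.0 and 93.8 CPM to 61.4, 63.8 and 60.6 CPM (-0.62 ± 0.09, adjusted p = 4.73e-05), and with *Zfp598* siRNA A to 71.4, 67.9 and 61.8 CPM (-0.51 ± 0.09, adjusted p = 0.00149). With *Fmr1* siRNA B it fell from 106, 94.2 and 119 CPM to 88.8, 81.0 and 80.9 CPM (-0.35 ± 0.09, adjusted p = 0.00872), and with *Zfp598* siRNA B to 86.3, 85.9 and 94.3 CPM (-0.26 ± 0.09, adjusted p = 0.0407). Both A siRNAs share the Scramble A libraries and both B siRNAs the Scramble B libraries, so the 4 calls are not independent.

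The A siRNA libraries of both targets lay below every Scramble library, *Fmr1* B lay below Scramble B, and for *Zfp598* siRNA B 94.3 CPM in B3 just exceeded 94.2 CPM in Scramble B2. For both targets the level of *Dcp2* in the siRNA B libraries exceeded that in the siRNA A libraries (0.43 ± 0.09, adjusted p = 0.00163 for *Fmr1*, and 0.40 ± 0.09, adjusted p = 0.00264 for *Zfp598*). When each was set against its own Scramble siRNA, the effects of A and B were not shown to differ (0.28 ± 0.13, adjusted p = 0.146, and 0.24 ± 0.13, adjusted p = 0.199). Pooled over siRNAs the change was -0.47 ± 0.12 with *Fmr1* KD (adjusted p = 0.0229) and -0.37 ± 0.12 with *Zfp598* KD (adjusted p = 0.109). Without *Zfp598* A2 and A3, which leaves A1 alone, the change with *Zfp598* siRNA A was -0.43 and the difference between the *Zfp598* siRNAs 0.33. The call with *Fmr1* siRNA A held under each of the alternative settings. That with *Zfp598* siRNA A was lost in a fit of its 6 libraries alone (-0.51, adjusted p = 0.0973). With all 6 Scramble libraries as the control the changes with the B siRNAs were -0.27 for *Fmr1* (adjusted p = 0.0547) and -0.18 for *Zfp598* (adjusted p = 0.154), and without TMM scaling -0.26 (adjusted p = 0.0569) and -0.21 (adjusted p = 0.119). No annotated gene overlaps the exons of *Dcp2*.

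The activators of decapping were called in fewer comparisons. *Dcp1b*, a cofactor that stimulates DCP2, fell with *Zfp598* siRNA B from 15.8, 14.998 and 18.1 CPM to 10.8, 10.2 and 9.44 CPM, the lowest 3 values of all libraries (-0.68 ± 0.12, adjusted p = 0.000213), whereas its paralog *Dcp1a* was at 46.2, 43.4 and 45.2 CPM there (0.18 ± 0.10, adjusted p = 0.236).

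*Ddx6*, a helicase that represses translation and activates decapping, was at 199, 215 and 181 CPM with *Fmr1* siRNA A against 133, 153 and 141 CPM with Scramble siRNA A (0.48 ± 0.09, adjusted p = 0.000504), with no overlap. With *Fmr1* siRNA B it was at 159, 151 and 160 CPM against 188, 179 and 188 CPM, lower in all 3 but not past the threshold, and the 2 effects differed by -0.72 ± 0.13 (adjusted p = 0.000315). The enhancer of decapping *Edc4* rose with *Fmr1* siRNA A (0.38 ± 0.11, adjusted p = 0.0148), although 16.6% of its exon sequence is shared with *Nrn1l* on the same strand. *Dcps*, the scavenger of cap remnants, and *Edc3*, a scaffold of the decapping complex, were called in none of the 4 comparisons.

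Within the Lsm1-7 ring, *Lsm1* moved in opposite directions with the *Fmr1* siRNAs. It rose with siRNA A, to 52.0, 55.0 and 44.6 CPM from 39.03, 44.4 and 41.1 CPM (0.28 ± 0.09, adjusted p = 0.0339), and fell with siRNA B, to 38.5, 39.05 and 36.1 CPM from 46.0, 47.5 and 51.1 CPM (-0.35 ± 0.09, adjusted p = 0.0106). Neither pair of groups overlapped, and with all 6 Scramble libraries as the control neither change passed (0.17, adjusted p = 0.225, and -0.24, adjusted p = 0.113). *Lsm3* was at 13.7, 13.4 and 15.7 CPM with *Fmr1* siRNA A (0.54 ± 0.15, adjusted p = 0.00995). In *Zfp598* A1 to A3 it was at 14.3, 18.8 and 11.9 CPM (0.63 ± 0.15, adjusted p = 0.00972). Both rises were set against Scramble siRNA A, whose 3 values were the lowest of all 18 libraries. Against all 6 Scramble libraries the changes were -0.02 (adjusted p = 0.96) and 0.06 (adjusted p = 0.889).

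*Lsm4*, another subunit of the ring, varied more than any other member, and its level went with the share of the most counted feature. In *Zfp598* A1, A2 and A3 it was at 69.4, 140 and 239 CPM where that share was 5.67%, 15.2% and 25.8%, and in Scramble A1, A2 and A3 at 102, 53.7 and 97.3 CPM where the share was 11.1%, 5.00% and 8.83%. It was lower with *Zfp598* siRNA B (42.9, 50.2 and 58.8 CPM) than with siRNA A by 1.54 ± 0.31 on the log2 scale (adjusted p = 0.000659). *Dhx34* was at 19.0, 30.2 and 36.7 CPM in *Zfp598* A1 to A3 and 13.8, 13.2 and 13.7 CPM in B1 to B3 (-1.05 ± 0.17, adjusted p = 0.000129). Without *Zfp598* A2 and A3, which leaves A1 alone, the differences were -0.44 and -0.46, so much of each difference came from A2 and A3.

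**Figure D3:**
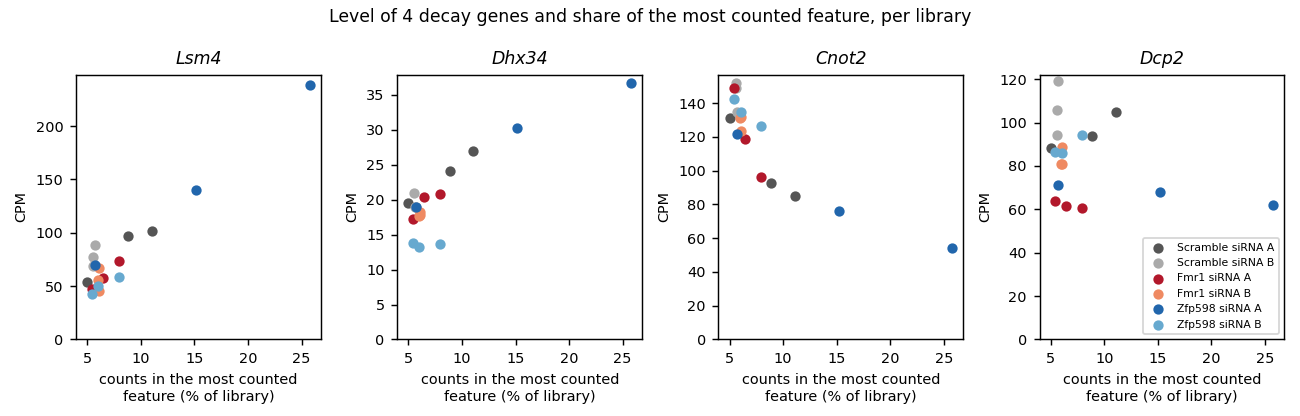
Level in CPM (vertical axes, from 0) of *Lsm4*, *Dhx34*, *Cnot2* and *Dcp2* in each of the 18 libraries against the share of the library taken by the most counted feature (horizontal axes, in %). The *Zfp598* A3 point, at 25.8%, is the highest for *Lsm4* and *Dhx34* and the lowest for *Cnot2*, while for *Dcp2* it lies among the *Fmr1* A and other *Zfp598* A points.

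Of the 5′ exonucleases *Xrn1*, which digests decapped mRNA in the cytoplasm, rose with *Fmr1* siRNA A, to 135, 142 and 124 CPM from 100, 118 and 94.2 CPM (0.36 ± 0.12, adjusted p = 0.0361). It was also higher with Scramble siRNA B than with A (0.37 ± 0.12, adjusted p = 0.0339). The nuclear *Xrn2*, which acts in transcription termination, was called with none of the 4 KD siRNAs against its Scramble siRNA. Between the *Zfp598* siRNAs it was higher for B (0.52 ± 0.15, adjusted p = 0.00974), with 126, 82.8 and 73.5 CPM in *Zfp598* A1 to A3. Without A2 and A3 the difference was 0.13, with A1 alone left.

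The exosome gave the most calls with *Fmr1* siRNA A, where 5 of its 11 measured members rose and 1 fell (54.5%, against 23.6% of all genes), with a median change of 0.37. The risen subunits were *Dis3* (0.57 ± 0.12, adjusted p = 0.00101), *Exosc5* (0.56 ± 0.17, adjusted p = 0.0176), *Exosc9* (0.49 ± 0.11, adjusted p = 0.00222), *Exosc1* (0.44 ± 0.13, adjusted p = 0.014) and *Exosc7* (0.37 ± 0.10, adjusted p = 0.0104). *Exosc5*, *Exosc7* and *Exosc9* belong to the core barrel and *Exosc1* to its RNA-binding cap. Of 15 ribosome biogenesis genes, which encode factors that work beside the nuclear exosome on pre-rRNA, 12 rose and 2 fell with the same siRNA (93.3%). Against all 6 Scramble libraries *Exosc9* alone of the 5 risen subunits passed. With *Fmr1* siRNA B 1 exosome member fell and none rose (9.09%, against 22.7% of all genes, median change -0.13). An unadjusted p under 0.05 was found there for 4 of the 11 and for 6140 of the 17901 genes. Of the ribosome biogenesis genes 2 rose and 1 fell there. Their part in the result was not tested.

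*Dis3* (chromosome 14, 99309595 to 99337773, minus strand, ENSMUSG00000033166), the main 3′ exonuclease of the nuclear exosome, was the other member called in opposite directions. Its level was 64.4, 60.5 and 59.6 CPM with *Fmr1* siRNA A against 36.2, 43.2 and 44.6 CPM with Scramble siRNA A. With *Fmr1* siRNA B it was 43.9, 41.4 and 37.9 CPM against 52.1, 53.7 and 61.9 CPM with Scramble siRNA B (-0.45 ± 0.12, adjusted p = 0.00745). The groups did not overlap in either comparison, and the effects differed by -1.02 ± 0.16 (adjusted p = 0.000115). *Fmr1* siRNA B was also below siRNA A directly (-0.58 ± 0.12, adjusted p = 0.000764). With *Zfp598* siRNA A (44.9, 34.2 and 31.1 CPM) and siRNA B (57.2, 55.4 and 52.4 CPM) it was not called against Scramble. Against all 6 Scramble libraries neither *Fmr1* change passed (0.34, adjusted p = 0.0766, and -0.25, adjusted p = 0.271). Of the exon sequence of *Dis3*, 13.55% lies opposite *Pibf1* and *Bora*, so that without a stated strand setting its count is uncertain.

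*Dis3l*, the cytoplasmic counterpart of *Dis3*, fell with *Fmr1* siRNA A to 15.3, 16.4 and 14.9 CPM from 21.3, 27.5 and 24.0 CPM (-0.65 ± 0.12, adjusted p = 0.00044). In *Zfp598* A1 to A3 it fell to 21.2, 16.7 and 15.6 CPM (-0.43 ± 0.12, adjusted p = 0.0269). Without *Zfp598* A2 and A3 the latter change was -0.21, with A1 alone left. Neither B siRNA passed (-0.18 ± 0.12 in *Fmr1* KD, -0.21 ± 0.12 in *Zfp598* KD). Pooled, *Dis3l* fell with *Fmr1* KD by 0.40 ± 0.11 (adjusted p = 0.0409), a call that was lost when any 1 of 8 libraries was left out. Of its exon sequence 13.98% lies opposite *Tipin* and a further transcript.

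*Exosc9* was at 25.3, 25.5 and 28.0 CPM with *Fmr1* siRNA A, above all 15 other libraries, which reached 20.5 CPM at most. Of its exon sequence 14.6% lies opposite *Ccna2* and a further transcript. *Exosc5* rose with *Zfp598* siRNA A, at 29.9, 45.3 and 53.6 CPM in A1 to A3 against 30.5, 18.7 and 26.2 CPM (0.76 ± 0.17, adjusted p = 0.00649), and *Exosc2*, a cap subunit, at 29.8, 41.1 and 57.0 CPM against 30.4, 26.3 and 31.8 CPM (0.50 ± 0.16, adjusted p = 0.04). For both genes A1 lay within the range of the Scramble A libraries, and without A2 and A3 the changes were 0.25 and 0.00. *Exosc5* overlaps *Tmem91* on the other strand over 30.1% of its exon sequence, and *Exosc2* a further transcript over 26.1%. *Exosc10*, a nuclear 3′ exonuclease, fell with *Zfp598* siRNA B (-0.28 ± 0.08, adjusted p = 0.017), a call that was lost without TMM scaling (-0.23, adjusted p = 0.0692).

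**Figure D4:**
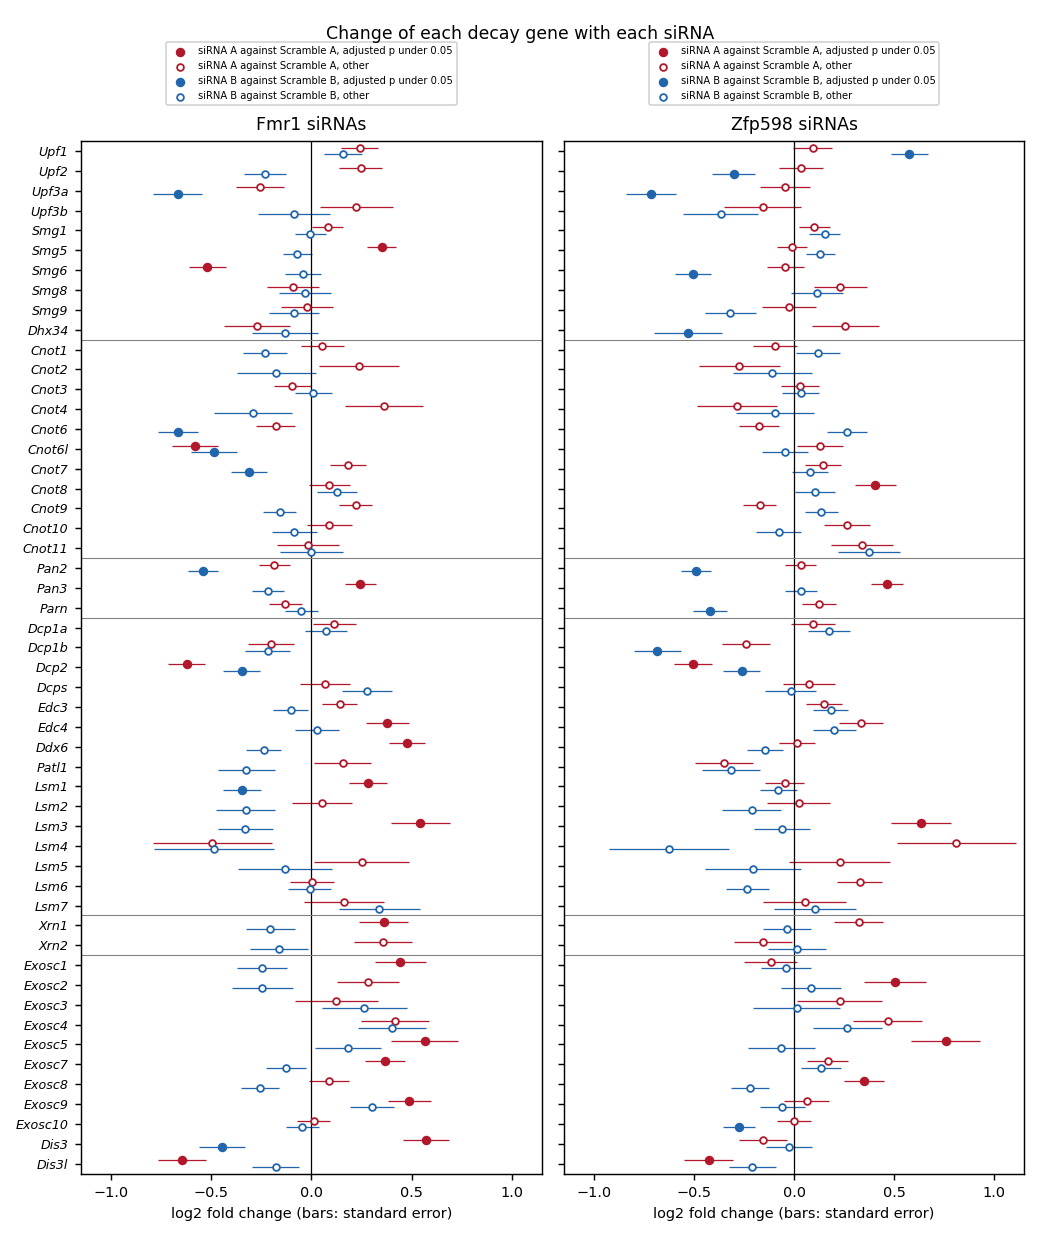
log2 fold change of each of the 52 measured decay genes (rows, by role) with each KD siRNA against the Scramble siRNA of the same letter, *Fmr1* on the left and *Zfp598* on the right, with bars of 1 standard error. Filled points passed an adjusted p of 0.05. *Dcp2* is the only gene with 4 filled points to the left of 0, and the filled points of *Dis3* lie at 0.57 (siRNA A) and -0.45 (siRNA B).

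siRNAs of the same target were compared directly as well. Between *Fmr1* siRNA B and A 15 members differed, 6 higher with B and 9 lower (28.8%, with 24.3% of all genes, 13.3% higher and 11.1% lower). The largest were *Smg6* (0.47 ± 0.09, adjusted p = 0.000654), *Dcp2* and *Dis3l* (0.37 ± 0.12, adjusted p = 0.0265) upward, and *Dis3*, *Upf3a* (-0.43 ± 0.12, adjusted p = 0.0153) and *Lsm1* (-0.42 ± 0.09, adjusted p = 0.00256) downward. Without *Fmr1* B1, the library with the stem cell markers, 10 members differed (with 18.6% of all genes), and *Upf3a* (-0.32, adjusted p = 0.102) and *Dis3l* (0.39, adjusted p = 0.0507) no longer passed. Between *Zfp598* siRNA B and A 22 members differed, 13 higher and 9 lower (42.3%, with 35.2% of all genes, 15.6% higher and 19.7% lower). Without TMM scaling 18 were higher and 6 lower (with 36.3% of all genes). The largest were *Upf1* (0.71 ± 0.09, adjusted p = 1.22e-05), *Cnot2* and *Cnot6* (0.64 ± 0.10, adjusted p = 6.22e-05) upward and *Lsm4*, *Dhx34* and *Upf3a* (-0.68 ± 0.13, adjusted p = 0.00039) downward. *Lsm4* and *Dhx34* were the only members over 2-fold in any comparison of 2 siRNA groups. Of all genes 7.57% were called and over 2-fold between the *Zfp598* siRNAs, 3.99% between the *Fmr1* siRNAs and 3.61% between the Scramble siRNAs. Without *Zfp598* A2 and A3 the siRNA A group is A1 alone, so no count between the *Zfp598* siRNAs is given for that fit.

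Each KD siRNA was then set against its own Scramble siRNA, and whether the effects of A and B on a target differed was tested gene by gene. For *Fmr1* it passed for 15 members, 14 of them lower with B and 1 higher (28.8%, with 21.8% of all genes, 9.65% lower and 12.2% higher), and for *Zfp598* for 13, 11 lower and 2 higher (25%, with 21.9% of all genes, 11.8% lower and 10.1% higher). The median difference over the members was -0.30 and -0.15, and over all genes -0.01 and -0.02. The Scramble siRNA B values, which were higher than those of siRNA A for 40 of 52 members, enter both differences. *Dis3*, *Lsm3* (-0.87 ± 0.20, adjusted p = 0.0035) and *Ddx6* gave the largest differences for *Fmr1*, and *Lsm4* (-1.43 ± 0.42, adjusted p = 0.0191), *Exosc5* (-0.82 ± 0.24, adjusted p = 0.0176) and *Dhx34* (-0.79 ± 0.24, adjusted p = 0.0228) for *Zfp598*. For the latter 3 the levels in *Zfp598* A2 and A3 lay above that in A1.

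Paralog pairs were compared within each library on a per-length scale, as the ratio of CPM per kb of the canonical transcript. The ratio of *Dis3* to *Dis3l* was 2.91 ± 0.19 (SD, n = 3) with *Fmr1* siRNA A and 1.26 ± 0.11 with Scramble siRNA A, and between 1.499 and 2.05 in the other 4 groups. That of *Cnot6* to *Cnot6l* ranged from 1.76 ± 0.0363 with *Zfp598* siRNA A to 2.87 ± 0.17 with *Fmr1* siRNA A. The ratio of *Dcp1a* to *Dcp1b* was highest with *Zfp598* siRNA B, at 2.68 ± 0.18 against 1.48 ± 0.19 with Scramble siRNA B. *Upf3a* exceeded *Upf3b* in every group, from 1.99 ± 0.23 with *Fmr1* siRNA B to 4.03 ± 1.58 with *Zfp598* siRNA A. *Cnot7* and *Cnot8* were nearly equal, their ratio falling below 1 in all 3 libraries only with *Fmr1* siRNA B (0.814 ± 0.0125). *Xrn1* to *Xrn2* was between 0.421 and 0.435 in 5 groups and 0.606 ± 0.0474 with *Zfp598* siRNA A. These ratios are descriptions without a test. *Dis3* and *Dis3l* both overlap genes on the other strand, and the strand setting is not stated.

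**Figure D5:**
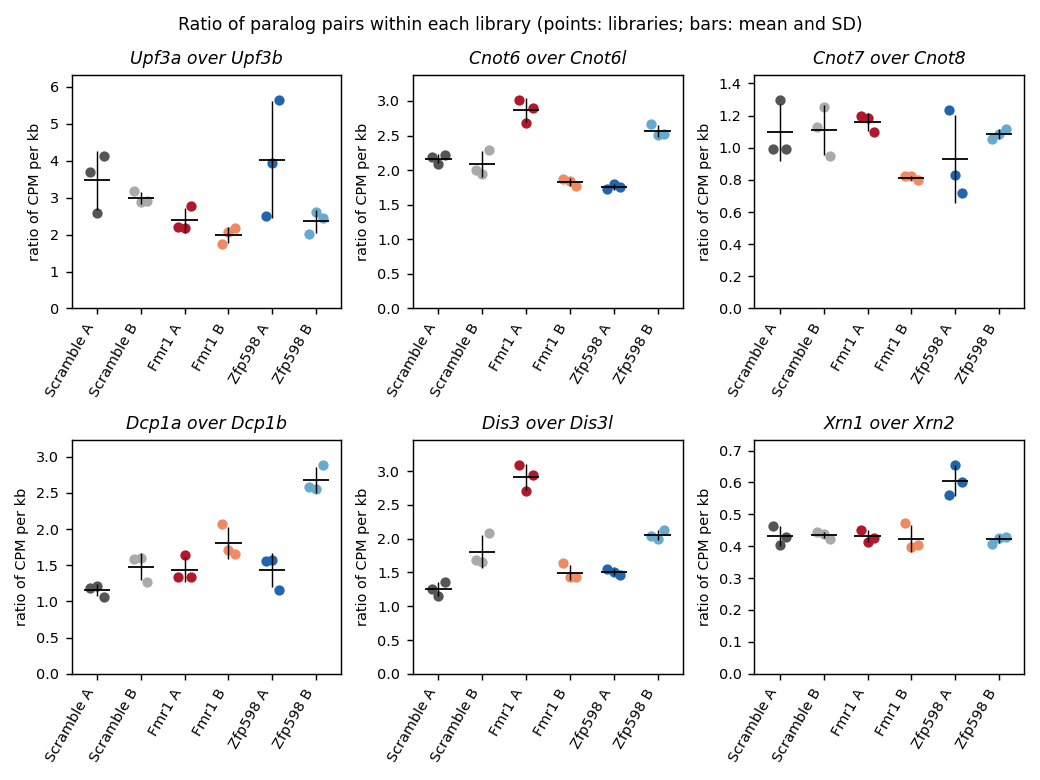
Ratio of CPM per kb (vertical axes, from 0) within each library for 6 paralog pairs of decay genes, by siRNA group. Points are libraries and bars the mean and SD of 3, and the *Dis3* to *Dis3l* ratio of the *Fmr1* A libraries (2.71 to 3.09) and the *Dcp1a* to *Dcp1b* ratio of the *Zfp598* B libraries (2.56 to 2.89) lie above all other groups.

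On the same per-length scale the levels of the machinery spanned from 2.998 to 77.4 CPM per kb over the group means. *Cnot1* was the most abundant member in all 6 groups, at 52.1 to 77.4 CPM per kb. *Cnot6*, at 33.6 to 64.1 CPM per kb, followed in 4 groups, while *Cnot2* and *Cnot8* exceeded it with *Fmr1* siRNA B and *Cnot8* with *Zfp598* siRNA A. *Dcp2* had 7.15 ± 0.19 (SD, n = 3) with *Fmr1* siRNA A and 12.3 ± 1.4 with Scramble siRNA B, and *Dcp1b* was among the least abundant at 2.998 to 5.07. The summed level of all members was 3892 to 4089 CPM with Scramble siRNA A, 4637 to 4661 with Scramble siRNA B, 4084 to 4337 and 4053 to 4079 with *Fmr1* siRNAs A and B, and 4012 to 4420 and 4640 to 4756 with *Zfp598* siRNAs A and B.

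Further decay factors, 55 genes on 9 lists (exon junction complex, other NMD factors, Ski complex, nuclear exosome cofactors, other deadenylases and nucleases, deadenylation adaptors, element-binding decay proteins, other decapping factors and terminal uridylyltransferases), were counted in the same comparisons. With *Fmr1* siRNA A 11 rose and 4 fell, and with *Fmr1* siRNA B 1 rose and 8 fell. *Zfp598* siRNA A gave 4 rises and 2 falls, and *Zfp598* siRNA B 7 and 9. The shares called were 27.3%, 16.4%, 10.9% and 29.1%, against 23.6%, 22.7%, 11.9% and 26.8% of all genes. Between the Scramble siRNAs 13 were higher and 4 lower with B (30.9%). The adaptors that bring deadenylases to mRNAs contributed 4 of the rises with *Fmr1* siRNA A and 3 of the falls with *Zfp598* siRNA B. Of the 3 genes of the Ski complex, which feeds the cytoplasmic exosome, 2 rose with *Zfp598* siRNA B and 1 with each *Fmr1* siRNA, and all 3 differed between the Scramble siRNAs (1 higher and 2 lower with B). Pooled over siRNAs 2 of the 55 fell with *Fmr1* KD and none was called with *Zfp598* KD.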

How the data were processed

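The authors used Trim Galore for trimming, STAR for alignment to GRCm39 and featureCounts for the number of reads on exons. The deposited values are these raw counts per Ensembl gene, neither normalized nor pooled. Tool versions, the annotation release, the strand setting and the treatment of multi-mapping reads are not given in the sources used here, so counts of overlapping or antisense genes are uncertain. All 18 columns of counts were used, with groups taken from the sample labels.

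Symbols, coordinates and transcript lengths came from GENCODE M39 (GRCm39). The filter on low counts was filterByExpr with its minimum count of 10 and a total of at least 15, and CPM use TMM factors. R 4.3.3 with edgeR 4.0.16 and limma 3.58.1 was used, with DESeq2 1.42.0 as an alternative. Quasi-likelihood tests were made in a model of 3 conditions and in a model of 6 siRNA groups over all 18 libraries, with Benjamini-Hochberg adjustment over all genes tested, after a check on simulated counts. The members and lists were chosen with earlier results of these data known. Full statistics were given for members called in a pooled comparison, the 8 with the smallest p over the 6 groups and the 3 largest called rises and falls elsewhere. Other members were given by role with shorter values, and paralog pairs whatever their values. The log2 scale for ranges of group means used a pseudocount of 0.5. Promoter sequences are from RefSeq (GRCm38.p6). A result on an item withheld from this text is not reported here.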

Additional observations from a re-analysis of the deposited data

Results flagged for a closer look

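A single library lay far from the other 5 of its condition for 5 of 156 combinations of member and condition, by Dixon's test at the 95% limit, which chance alone passes in about 1 of 20. *Cnot10* was at 48.1 CPM in Scramble A2, where the other Scramble libraries lay between 60.3 and 63.1 CPM. *Exosc2* was at 29.3 CPM in *Fmr1* B1, against 34.0 to 36.6 CPM. *Upf3b* was at 15.8 CPM in *Zfp598* A1, against 9.05 to 11.5 CPM. *Exosc3* was at 15.4 CPM in *Zfp598* A3, against 6.02 to 8.78 CPM. *Exosc10* was at 67.7 CPM in *Zfp598* A1, against 57.4 to 60.9 CPM.

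The effects of siRNA A and siRNA B on the same target differed by the edgeR test of that difference (B minus A, log2 scale). For *Fmr1* the difference was -1.02 for *Dis3*, -0.87 for *Lsm3*, -0.72 for *Ddx6*, -0.69 for *Exosc1*, -0.63 for *Lsm1*, -0.57 for *Xrn1*, -0.50 for *Cnot7*, -0.49 for *Exosc7*, -0.49 for *Cnot6*, -0.48 for *Upf2*, -0.46 for *Pan3*, -0.42 for *Smg5*, -0.38 for *Cnot9*, -0.36 for *Pan2* and 0.48 for *Smg6*. For *Zfp598* it was -1.43 for *Lsm4*, -0.82 for *Exosc5*, -0.79 for *Dhx34*, -0.69 for *Lsm3*, -0.67 for *Upf3a*, -0.57 for *Exosc8*, -0.56 for *Lsm6*, -0.54 for *Parn*, -0.52 for *Pan2*, -0.46 for *Smg6*, -0.43 for *Pan3*, 0.44 for *Cnot6* and 0.48 for *Upf1*. *Smg6* went opposite ways for the 2 targets, as did *Cnot6*, and whether the targets differ in this was not tested. Without *Zfp598* A2 and A3 the *Zfp598* differences were -0.29 for *Smg6* and 0.23 for *Cnot6*, with A1 alone left for siRNA A.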

How the results depend on the processing

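Of 1159 recomputed values for 46 pairs of a named member and a comparison, 1063 kept their direction and their side of the threshold, 95 kept the direction but no longer passed, and 1 reversed: *Lsm3* with *Fmr1* siRNA A was -0.0206 when all 6 Scramble libraries were the control. The cause was not tested. A scaling without TMM moved the median of all genes by 0.12 between *Zfp598* siRNAs B and A and by 0.11 in the difference of the *Zfp598* effects. It moved that median by 0.08 in pooled *Fmr1* KD, 0.07 with *Fmr1* siRNA A and 0.08 with *Fmr1* siRNA B. With *Zfp598* siRNAs A and B the shifts were -0.06 and 0.05. With a criterion of over 2-fold the counts of members called fell to 0 in both *Fmr1* comparisons by siRNA, both *Zfp598* ones, pooled *Fmr1* KD, between the Scramble siRNAs and between the *Fmr1* siRNAs, and to 2 between the *Zfp598* siRNAs. With the siRNA letter as a term the pooled counts were 7 (*Fmr1* KD, with 1808 of all genes called) and 2 (*Zfp598* KD, with 788). For *Zfp598* KD DESeq2 and the scaling without TMM each gave 1 (with 917 and 385 of all genes).

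Without *Zfp598* A2 and A3 the counts were 10 for *Fmr1* KD (3 higher and 7 lower, with 10% of all genes called), 5 for *Zfp598* KD (6.86%), 17 for *Fmr1* siRNA B (28.9%), 3 for *Zfp598* siRNA A (5.78%), 20 between the Scramble siRNAs (29.1%) and 8 between the *Zfp598* siRNAs (16.1%). The cause was not tested. Fits on the 6 compared libraries alone gave 21 for *Fmr1* siRNA B (32.2% of all genes), 0 for *Zfp598* siRNA A (0.626%), 18 for *Zfp598* siRNA B (37.3%), 24 between the *Fmr1* siRNAs (33%) and 12 between the *Zfp598* siRNAs (20.7%). With all 6 Scramble libraries as the control, *Fmr1* siRNA A gave 10 (4 higher and 6 lower, with 21.4% of all genes) and *Fmr1* siRNA B 4 (all lower, 12.3%).

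Leaving out each library in turn gave 2 to 6 members for *Fmr1* KD, 0 to 2 for *Zfp598* KD, 10 to 21 for *Fmr1* siRNA A, 6 to 15 for *Fmr1* siRNA B, 3 to 21 for *Zfp598* siRNA A, 6 to 14 for *Zfp598* siRNA B, 6 to 19 between the Scramble siRNAs, 9 to 17 between the *Fmr1* siRNAs, 15 to 28 between the *Zfp598* siRNAs, 11 to 20 and 9 to 20 for the differences in *Fmr1* and *Zfp598* effects, and 33 to 46 over all 6 groups. The highest counts mostly came without *Zfp598* A1 and the 3 for *Zfp598* siRNA A without Scramble A2. These ranges have no share of all genes beside them. The pooled fall of *Dcp2* lost its call without Scramble B1 or B3 or any *Fmr1* A library, and ranged from -0.53 to -0.42. That of *Pan2* lost it without Scramble B2.

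No label says that replicate numbers pair the samples. Deviations of same-numbered libraries correlated from -0.40 to 0.34 (median 0.05, over 0.1 in 16 of 45 pairs). Those of libraries of different number correlated from -0.43 to 0.56 (median -0.02, over 0.1 in 11 of 90 pairs). With a replicate block 3 members were called for *Fmr1* KD and 0 for *Zfp598* KD, and 17, 10, 10 and 12 for *Fmr1* siRNAs A and B and *Zfp598* siRNAs A and B. Shares of all genes are not given for that fit. Of the 18 libraries 11 correlated best with a library of their own number, for which no chance level was computed. That is at most a hint of pairing, from the data and not from the design. Depth limits *Lsm5* most, the only tested member with under 50 counts in some library.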
